A study of Mus musculus with 9 samples.

Results

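Phase II conjugation enzymes attach a polar group to drugs, toxins, steroids, bilirubin and other lipophilic compounds, which makes them soluble and ready for export into bile or urine. Glutathione S-transferases (Gst genes and the membrane-bound Mgst genes) join glutathione to electrophiles, UDP-glycosyltransferases (Ugt genes) mostly transfer glucuronate, and sulfotransferases (Sult genes) transfer sulfate from the donor PAPS. The proximal tubule, whose cells also carry the uptake and efflux pumps for conjugates, is the main site of this chemistry in the kidney. Members were the genes whose symbols begin with Gsta, Gstk, Gstm, Gsto, Gstp, Gstt, Gstz, Mgst, Ugt1, Ugt2, Ugt3, Ugt8 or Sult, which gave 53 of the 18657 genes in the table. They comprised 20 cytosolic Gst genes, 4 Mgst and Gstk genes, 9 genes of the Ugt1a locus, 6 Ugt2 genes, 3 Ugt3 and Ugt8 genes and 11 Sult genes.

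RNA of the kidney cortex of male littermates on a mixed C57BL/6 and FVB background was sequenced in 4 groups, all of which carried floxed alleles of Vhl (Vhl fl/fl), the gene of the ubiquitin ligase subunit that marks HIF-1α for degradation. VHLΔPT/STZ mice carried in addition Cre recombinase under the Sglt2 promoter, which is active in the early proximal tubule, and received streptozotocin (STZ), a toxin of pancreatic beta cells that causes insulin-deficient diabetes. Mice of the con/STZ group had no Cre and received STZ. VHLΔPT mice had Cre and received citrate buffer, and con mice had no Cre and received citrate buffer. STZ was injected at 100 mg/kg on 2 consecutive days at 12 weeks of age, and tissue was taken 10 weeks later. The study describes the Cre-driven loss of Vhl as partial and limited to the S1 and S2 segments. Each library was pooled RNA of 2 mice, with 2 libraries each for VHLΔPT/STZ, con/STZ and VHLΔPT and 3 for con, so the spread and the p-values given here measure differences between pools and not between mice.

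All values below are quantile normalized gene counts, in short counts. The libraries have nearly equal totals by construction (21951722 to 21952234), and the read depth of each is not known. Changes are log2 differences of count + 1, and a gene passed when its adjusted p from limma, a linear model fitted over the 14437 genes with a mean count of at least 10, was under 0.05. Of the members, 43 reached that mean. Vhl, on chromosome 6, had counts of 516 and 516.5 in VHLΔPT/STZ, 501 and 527 in con/STZ, 434 and 469.8 in VHLΔPT, and 555, 522 and 528 in con. Vhl was lowest in VHLΔPT but did not pass, and in VHLΔPT/STZ it lay within the range of con/STZ, so these counts do not check the label of the diabetic Vhl group. Markers of the S1 and S2 segments were abundant in every library (Slc34a1, a phosphate transporter, from 110088 to 154892), while the adrenal marker Cyp11a1 was at 0 to 3.00. The 2 measured adrenal markers together summed to 70.2 to 112. Summed counts of 3 fat markers ran from 61.4 in con replicate 1 to 2667 in con replicate 2, and those of 5 liver markers from 2259 to 12090. How much RNA of other tissues each pool held was not tested. In con/STZ replicate 2, Xist, which is made from the silenced X chromosome of female cells, had a count of 3205 against 0 to 6.22 in the other 8 libraries, although all mice are described as male. The members that passed in con/STZ against con are therefore named with and without that library. Results on surrounding genes and cell type markers are given with it only. In VHLΔPT/STZ replicate 2, the summed count of 5 urothelial genes was 3110, against 106 to 872 in the other 8.

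The Ugt1a genes are 9 overlapping genes on chromosome 1 (88055388 to 88220002, GRCm38) that each have a first exon of their own and share the later exons. The bases around the first splice junction are shown because they set what the counts can tell apart. The last 25 bases of each first exon are in lower case and the first 25 bases of the shared second exon (chr1:88215044-88215068, plus strand) in capitals, from GENCODE M21 transcripts.
Ugt1a2: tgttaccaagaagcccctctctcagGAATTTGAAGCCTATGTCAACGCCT
Ugt1a1: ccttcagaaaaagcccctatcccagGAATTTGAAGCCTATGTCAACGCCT
Ugt1a6a: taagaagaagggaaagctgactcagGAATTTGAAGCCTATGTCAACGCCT
Ugt1a10: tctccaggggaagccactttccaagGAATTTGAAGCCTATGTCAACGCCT
The capitals are identical in all 9 genes, whereas the first-exon stretches differ from that of Ugt1a2 at 8 bases in Ugt1a1, 13 in Ugt1a6a and 11 in Ugt1a10, and at 0 in Ugt1a5. Reads were 50 bases long, and 63.7% of the distinct 50-base windows of Ugt1a2 also occur in another gene. The counts of Ugt1a2 and Ugt1a1 are thus told apart mainly by their first exons, of 900 and 913 bases, while Ugt1a6a and Ugt1a7c have further exon bases that no other gene holds (52.1% and 53.7% of their windows are shared). How reads in the shared exons were assigned is not given in the sources used here.

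A pair of Ugt2 genes on chromosome 5 and a pair of Gsta genes on chromosome 9 are shown by bases upstream of their RefSeq starts, since they are close copies. The Gsta2 stretch lies inside the longer GENCODE gene (78331018 to 78355788). Capitals mark bases with no identical partner in the alignment of each pair. Sequences are RefSeq promoters on GRCm38.p6, in which 48 of the 53 members were found.
Ugt2b38 (chr5:87424204-87424323, minus strand): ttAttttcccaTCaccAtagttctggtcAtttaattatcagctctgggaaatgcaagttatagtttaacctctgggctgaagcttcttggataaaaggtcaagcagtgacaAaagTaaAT
Ugt2b37 (chr5:87254805-87254924, minus strand): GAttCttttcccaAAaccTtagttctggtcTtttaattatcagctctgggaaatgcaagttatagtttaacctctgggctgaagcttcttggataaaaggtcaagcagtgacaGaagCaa
Gsta1 (chr9:78230536-78230655, plus strand): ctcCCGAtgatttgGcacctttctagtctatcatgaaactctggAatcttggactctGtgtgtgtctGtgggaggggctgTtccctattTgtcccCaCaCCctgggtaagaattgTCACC
Gsta2 (chr9:78347169-78347288, minus strand): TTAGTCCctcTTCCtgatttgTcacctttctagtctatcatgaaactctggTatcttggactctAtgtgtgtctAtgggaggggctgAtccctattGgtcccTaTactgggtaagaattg
Over 118 aligned bases, 94.1% were identical between Ugt2b38 and Ugt2b37, and over 113 aligned bases 89.4% were identical between Gsta1 and Gsta2. Shares of 50-base windows that occur in any other gene were 37.4% for Ugt2b38 and 18.3% for Ugt2b37, both mostly shared with Ugt2b5, and 90.5% for Gsta1 and 49.8% for Gsta2. Counts of Gsta1 are therefore uncertain, since 75.7% of its windows also occur in the gene model Gm3776 alone.

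Levels of different members were compared per kb of merged exons. On this scale, Ugt3a2, a glycosyltransferase of the Ugt3 family, had the highest mean over the 9 libraries, with 12650 and 9269 counts per kb in VHLΔPT/STZ, 8741 and 9370 in con/STZ, 11640 and 12650 in VHLΔPT, and 12050, 12050 and 10700 in con. By that mean, Ugt2b38, Gstm1 (a mu-class transferase) and Sult1d1 (a sulfotransferase of catecholamines in mice) followed. In con these averaged 13950 ± 2600, 8569 ± 352 and 5768 ± 841 counts per kb (SD, n = 3), and Ugt3a2 averaged 11600 ± 778. The highest group mean was that of Gstm1 in VHLΔPT/STZ, of Sult1d1 in con/STZ, and of Ugt2b38 in VHLΔPT and con. Within con, Ugt2b38 and Ugt3a2 overlapped, and Gstm1 lay above Sult1d1 in every library. The next 4, Gstm5, Mgst3 (a microsomal enzyme that can make leukotriene C4), Gstt1 (theta class) and Sult1c2, averaged 2579 ± 438, 2199 ± 504, 2492 ± 203 and 1793 ± 729 counts per kb in con (SD, n = 3), and these 4 overlapped. Per-kb levels of the Ugt1a genes depend on how reads in their shared exons were assigned.

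**Figure D1:**
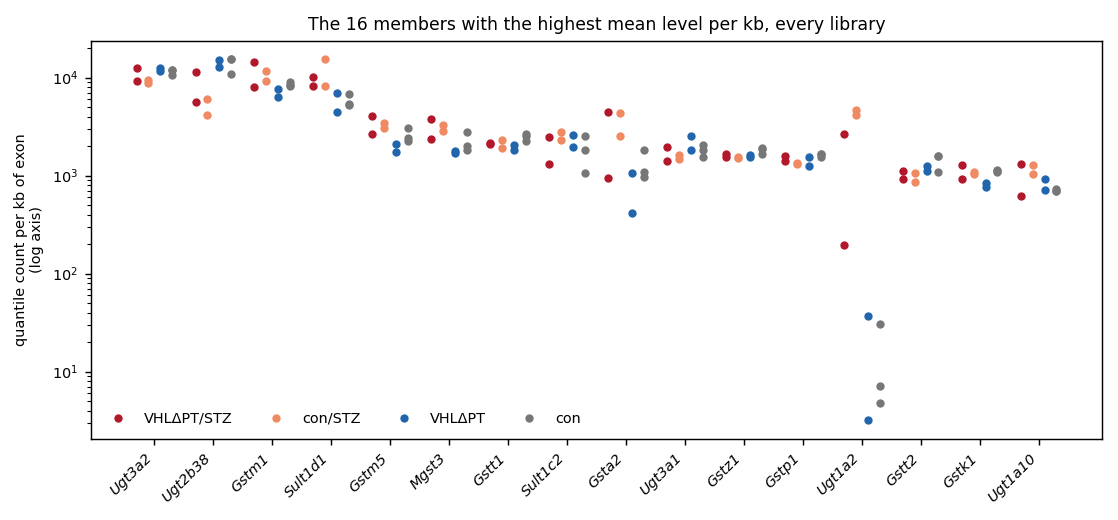
Quantile count per kb of merged exons (log axis) of the 16 members with the highest mean level, in order, for each of the 9 libraries, colored by group. Ugt3a2 had the highest mean over the 9 libraries, and Ugt1a2 had the widest range, from 3.17 counts per kb in VHLΔPT replicate 1 to 4614 in con/STZ replicate 1.

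The sum over all 53 members took 0.681% and 0.720% of all counts in VHLΔPT/STZ, 0.745% and 0.663% in con/STZ, 0.597% and 0.678% in VHLΔPT, and 0.626%, 0.666% and 0.682% in con, so the groups overlapped. The make-up of this sum differed more than its size. Ugt1a genes summed to 6694 and 13284 counts in VHLΔPT/STZ, 17616 and 17863 in con/STZ, 5694 and 5175 in VHLΔPT, and 5454, 4655 and 4638 in con. Ugt2 genes summed to 24624 and 13984 in VHLΔPT/STZ, 13743 and 10588 in con/STZ, 25713 and 30756 in VHLΔPT, and 21704, 30478 and 31938 in con. Both con/STZ libraries were thus above all con libraries for the first locus and below all of them for the second.

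The first question is what STZ diabetes alone did to these genes, in con/STZ against con. Of 43 members tested, 8 rose and 3 fell (limma). Over all genes tested, 14.1% rose and 14.1% fell, so the number of members that passed lies near the background for rises and below it for falls. The median change of the members was 0.34, against -0.02 over all genes. Members are short (a median of 2117 exon bases, against 4307 over all genes tested), and libraries differed in how much of short genes they held. Across genes, log10 exon length correlated with how far each library deviated from the 9-library average. The r was 0.257 and 0.269 in con/STZ, 0.212 and 0.188 in VHLΔPT, 0.184 and -0.057 in VHLΔPT/STZ, and -0.26, -0.19 and -0.455 in con. With the length trend removed, 11 members rose and 1 fell in con/STZ, where 8.5% of all genes rose and 10.8% fell, and 9 of the 11 calls were kept. Rises were spread over the families: Ugt1a2, Ugt1a1, Ugt1a6a and Ugt2b34 among the glucuronosyltransferases, Gsta1, Gsto1 and Gstm7 among the glutathione transferases, and Sult1d1. The genes that fell were Ugt2b38, Ugt2a3 and Gstt2. By family, 3 of 8 Ugt1a genes rose (median change 0.76), 1 of 5 Ugt2 genes rose and 2 fell (0.75), 3 of 18 cytosolic Gst genes rose and 1 fell (0.31), and 1 of 6 Sult genes rose (0.31). Of 3 Mgst and Gstk genes (0.49) and of 3 Ugt3 and Ugt8 genes (-0.36) 0 passed, with 1 higher and 2 lower by an unadjusted p under 0.05 (20.6% and 21.6% of all genes). Without con/STZ replicate 2, the library with Xist, 4 members rose (Ugt1a2, Ugt1a6a, Ugt2b34 and Sult1d1) and 0 fell, where 4.94% of all genes rose and 4.01% fell. Without con/STZ replicate 1, 4 rose (Ugt1a2, Ugt1a1, Gsta1 and Ugt2b34) and 1 fell (Ugt2b38), where 4.55% and 3.99% of all genes did. Each of the 11 genes kept its direction without either library. The count of members that passed was 6 without con replicate 2, where 11.6% of all genes rose and 10.9% fell. Without con replicate 3 the count was 7, where 10.7% of all genes rose and 10.3% fell. It was 19 (14 higher and 5 lower) without either of the VHLΔPT/STZ libraries, which enter the estimate of the spread, where 15.0% of all genes rose.

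Ugt1a2 had the largest rise of all 14437 genes tested in this comparison. Its counts were 10202 and 9274 in con/STZ, against 10.7, 15.7 and 67.7 in con, a log2 change of 8.68 (SE 1.25, adjusted p = 0.00322, limma). The groups were far from overlapping, and the gene passed under each of the 21 alternatives tried, with changes between 8.14 and 9.63. Ugt1a1, whose enzyme conjugates bilirubin, had 84.7 and 98.7 counts in con/STZ and 14.9, 3.11 and 12.4 in con (log2 change 3.27, SE 0.58). Ugt1a6a, which conjugates small phenols, had 94.1 and 61.0 counts in con/STZ and 27.2, 23.2 and 12.4 in con (1.87, SE 0.35). For both the groups did not overlap, at counts far below that of Ugt1a2. Of the 50-base windows of Ugt1a1, 80.2% occur in another gene and 58.2% in Ugt1a2. The adjusted p values of Ugt1a1 and Ugt1a6a were 0.00617 and 0.00746 (limma), and without con/STZ replicate 2 that of Ugt1a1 was 0.0502.

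The other Ugt1a genes did not pass. Ugt1a10 and Ugt1a7c, which made up most of the Ugt1a counts in con, had log2 changes of 0.71 (SE 0.27) and 0.81 (SE 0.36), and Ugt1a9 had -0.84 (SE 0.52). As a share of all Ugt1a counts, Ugt1a2 took 57.9% and 51.9% in con/STZ, against 0.196%, 0.337% and 1.46% in con. The share of Ugt1a9 was 2.12% and 0.831% in con/STZ, against 9.25%, 8.49% and 8.20% in con. The locus therefore held mostly Ugt1a7c and Ugt1a10 counts in con and mostly Ugt1a2 counts in con/STZ.

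**Figure D2:**
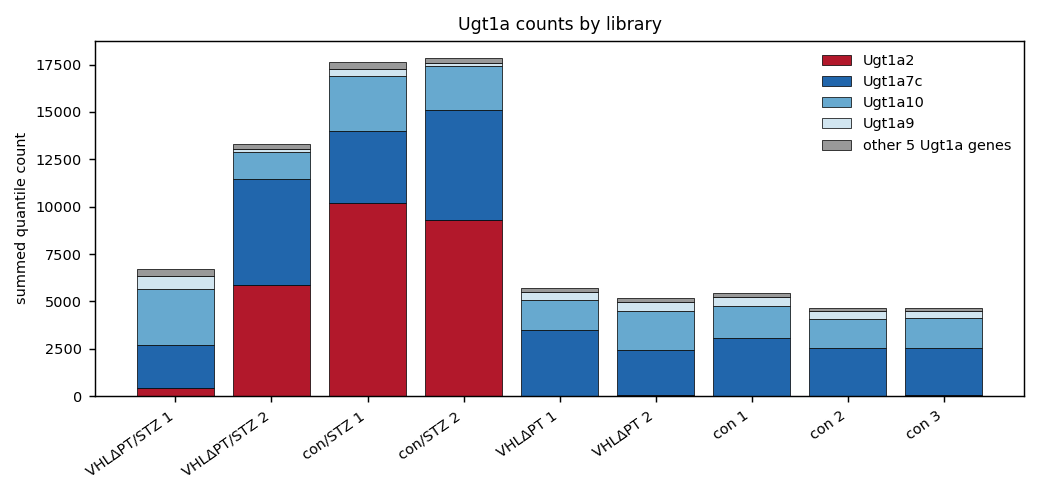
Summed quantile counts of the 9 Ugt1a genes (vertical axis) in each of the 9 libraries (bars), split by gene. Ugt1a2 is the largest segment in both con/STZ libraries (57.9% and 51.9%) and in VHLΔPT/STZ replicate 2 (44.0%), 6.52% in VHLΔPT/STZ replicate 1, and at most 1.57% in VHLΔPT and con.

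The Ugt2 genes, which conjugate steroids and other lipids, lie with Sult1b1, Sult1d1 and Sult1e1 in a stretch of chromosome 5 between 86889767 and 87591594, and they moved in both directions. Ugt2b38 had 11377 and 7821 counts in con/STZ, against 20711, 29379 and 29067 in con (log2 change -1.47, SE 0.30, adjusted p = 0.00978, limma). Both con/STZ libraries were below all con libraries. Ugt2b34 had 795 and 1332 counts in con/STZ, against 516, 429 and 450 in con (1.15, SE 0.20, adjusted p = 0.00603), again without overlap. Ugt2a3 was much rarer, with 10.4 and 9.22 counts in con/STZ and 26.1, 38.9 and 29.2 in con (-1.56, SE 0.49, adjusted p = 0.0425). Ugt2b37, the close copy of Ugt2b38, is a gene that the study names. It had 1511 and 1387 counts in con/STZ and 441, 609 and 2351 in con, so the groups overlapped (0.75, SE 0.62, adjusted p = 0.382). Without con replicate 3, which held the 2351 counts, it passed (1.48, adjusted p = 0.0226). The changes of these copies had opposite signs, and a test of one against the other was not run. Sult1d1 had 38099 and 20347 counts in con/STZ and 16556, 13226 and 12766 in con (0.98, SE 0.28, adjusted p = 0.0308), with both con/STZ libraries above con but far apart from each other. Without con/STZ replicate 1 the change of Sult1d1 was 0.53 (adjusted p = 0.229).

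Among the glutathione transferases, Gsta1 had 214 and 342 counts in con/STZ, against 62.6, 32.2 and 48.4 in con (log2 change 2.53, SE 0.51, adjusted p = 0.00959, limma). Its copy Gsta2 had 2958 and 5075 counts in con/STZ and 1126, 1270 and 2125 in con, which did not pass (1.42, SE 0.64, adjusted p = 0.124). For both genes the con/STZ libraries were above all con libraries. Gsto1, an omega-class enzyme that also reduces dehydroascorbate, had 1143 and 1347 counts in con/STZ and 593, 597 and 763 in con (0.94, SE 0.29, adjusted p = 0.0412). Gstm7, of the mu class, had 364 and 421 counts in con/STZ and 284, 232 and 261 in con (0.60, SE 0.19, adjusted p = 0.0440). Gstt2, of the theta class, had 3550 and 4393 counts in con/STZ and 4529, 6596 and 6539 in con (-0.55, SE 0.18, adjusted p = 0.0492). Con/STZ and con did not overlap for Gsto1, Gstm7 and Gstt2 either, but without con/STZ replicate 2 the adjusted p was 0.195 for Gsto1 and 0.222 for Gstm7, and without con/STZ replicate 1 it was 0.278 for Gstt2.

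The remaining abundant members did not pass. Gstm1 had 11912 and 21290 counts in VHLΔPT/STZ, 17158 and 13735 in con/STZ, 9398 and 11292 in VHLΔPT, and 12166, 12516 and 13185 in con. Gstm5 had 3419 and 5142 counts in VHLΔPT/STZ, 4404 and 3917 in con/STZ, 2230 and 2699 in VHLΔPT, and 3118, 2847 and 3924 in con. Mgst3 had 2562 and 4147 counts in VHLΔPT/STZ, 3568 and 3121 in con/STZ, 1843 and 1959 in VHLΔPT, and 1991, 2207 and 3038 in con. For these 3 genes both VHLΔPT libraries were below all con libraries, and for Gstm1 and Mgst3 both con/STZ libraries were above all con libraries. The share of all genes separated in this way was not counted, so no result is drawn from it. Gstt1 had 3188 and 3253 counts in VHLΔPT/STZ, 2929 and 3486 in con/STZ, 3152 and 2774 in VHLΔPT, and 4051, 3458 and 3916 in con. Sult1c2 had 4568 and 2445 counts in VHLΔPT/STZ, 4217 and 5155 in con/STZ, 3637 and 4830 in VHLΔPT, and 1951, 3338 and 4643 in con, where the con libraries alone spanned most of the range. The log2 changes in con/STZ against con were 0.28 for Gstm1, 0.35 for Gstm5, 0.49 for Mgst3, -0.25 for Gstt1, 0.58 for Sult1c2 and -0.36 for Ugt3a2 (adjusted p between 0.109 and 0.359, limma).

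**Figure D3:**
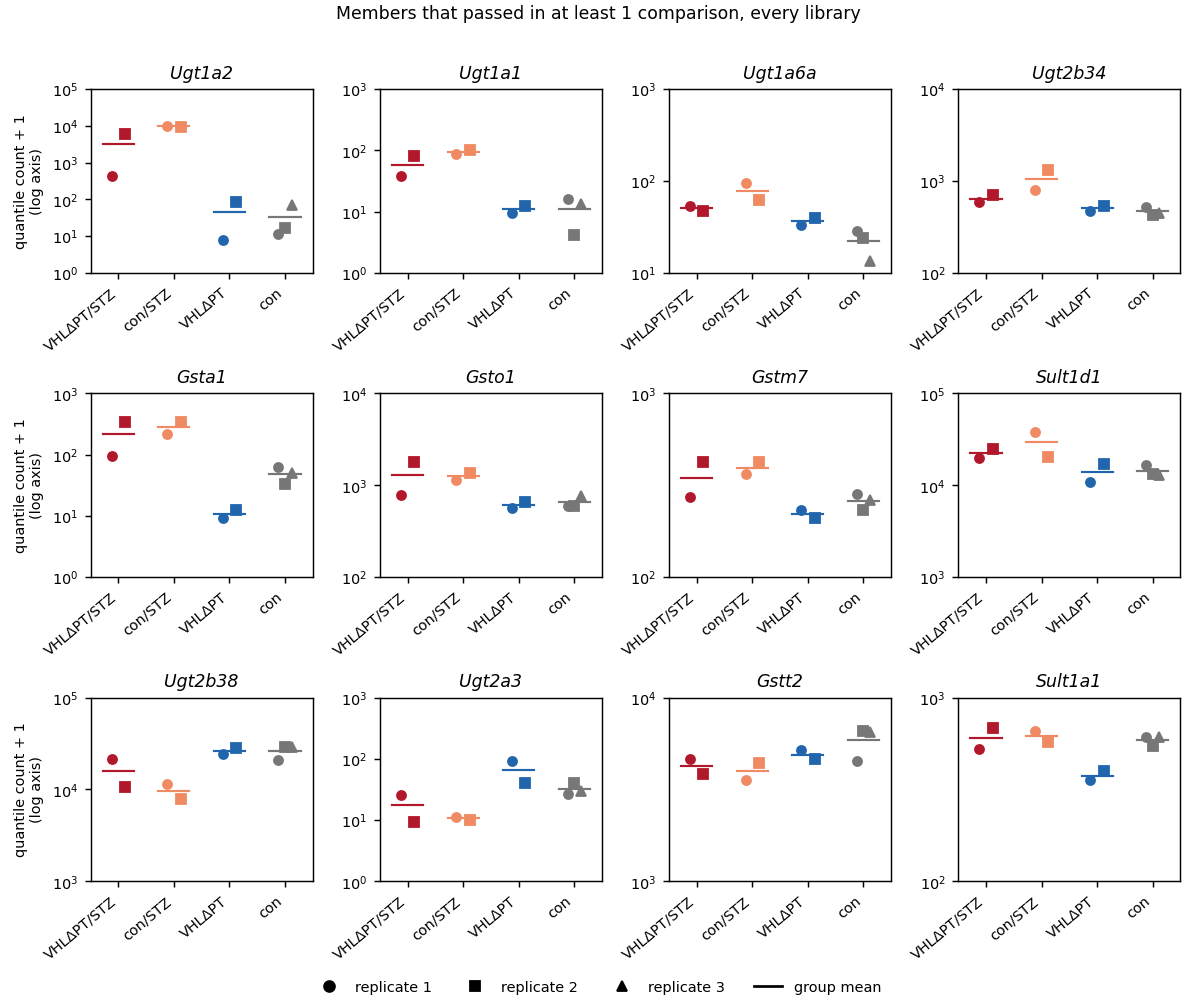
Quantile count + 1 (log axis) of the 12 members that passed in at least 1 comparison, one point for each library (shape gives the replicate number) and a line for the arithmetic group mean, with VHLΔPT/STZ, con/STZ, VHLΔPT and con side by side. Both con/STZ libraries are above all con libraries for the 8 genes that rose and below them for Ugt2b38, Ugt2a3 and Gstt2, and both VHLΔPT libraries are below all con libraries for Sult1a1.

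The antioxidant response element core TGACNNNGC, the site of the factor Nrf2 that is known to drive many Gst genes, occurs on either strand in the 250 bases before the start of Gsta3, Gstm5, Gstm7 and Mgst1, 4 of the 59 member promoters. It occurs in 10.2% of 32851 promoters of the genome. It is shown for the member that rose and for Gsta3, with the motif in capitals.
Gstm7 (chr3:107931705-107931773, minus strand): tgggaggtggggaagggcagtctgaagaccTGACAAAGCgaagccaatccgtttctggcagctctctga
Gsta3 (chr1:21240434-21240502, plus strand): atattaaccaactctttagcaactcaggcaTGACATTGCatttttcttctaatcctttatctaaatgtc
GTTAAT, a partial recognition site of HNF1 factors, occurs in 10 of the 59 member promoters, 4 of them in the Ugt1a locus (Ugt1a1, Ugt1a6a, Ugt1a9 and Ugt1a10), and in 6.43% of all promoters. The cores ACGTG and GCGTG of the hypoxia response element occur in 6 and 12 of the 59, against 16.6% and 28.2% of all promoters. These matches are letters in a window and were not tested for binding.

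The genes around conjugation are described next for con/STZ against con, from lists chosen with earlier results of these data known. Over all genes tested 14.1% rose and 14.1% fell, with a median change of -0.02, and several counts below lie near these shares. Some genes, such as Abcc4 and Slco1a1, stand in more than 1 list. Of 19 tested genes of glutathione supply and of mercapturate formation, the path that turns glutathione conjugates into their urinary form, 1 rose and 7 fell (limma), with a median of -0.29. Those with the largest falls were Acy3, which deacetylates mercapturates (29379 and 24795 counts in con/STZ, against 80665, 100610 and 85143 in con, log2 change -1.71), Ggct, a step of glutathione breakdown (-1.32), and Nat8, which acetylates cysteine conjugates (-1.08). Of 12 conjugate transporters, 6 rose and 3 fell, with a median of 0.57. The efflux pump Abcc3 had 428 and 1267 counts in con/STZ and 51.8, 76.3 and 80.1 in con (3.41, SE 0.65, adjusted p = 0.00753), and Abcc4, another such pump, had a change of 1.46 (SE 0.23, adjusted p = 0.00446). From a broad list for deconjugation (Gusb, Sts, Arsa, Arsb and Glb1) 4 genes were tested, of which 0 rose and 2 fell. One of them was Gusb, the beta-glucuronidase that removes glucuronate again, with 1314 and 1133 counts in con/STZ and 9677, 12103 and 8302 in con (-3.02, SE 0.51, adjusted p = 0.00504). Of 10 tested genes of PAPS supply and sulfate handling 1 rose, Papss2, which makes PAPS (0.85), and 2 fell, and of 8 genes of UDP-glucuronate supply 1 rose and 2 fell. Of 16 Nrf2 targets outside the families 2 rose (Nqo1, a quinone reductase, by 0.71, and Abcc4) and 2 fell, with a median of 0.09. Of 18 tested regulators 6 rose and 1 fell, and the largest rises were those of the nuclear receptor Ppara (1.32), of Hif1a (0.87) and of Ahr, the dioxin receptor (0.70).

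Genes known to differ between male and female mouse kidneys moved in the same libraries. All 7 tested genes known as higher in males had a lower mean in con/STZ than in con, and 6 fell, among them Slco1a1, an anion transporter (2055 and 938 counts in con/STZ, against 9607, 13691 and 9497 in con). Of 3 genes known as higher in females, 2 rose, and Slc7a12, an amino acid transporter, had 1693 and 2279 counts in con/STZ, against 42.6, 17.8 and 41.8 in con. Both con/STZ libraries showed this, whereas Xist was high in replicate 2 alone. Replicate 2 was the farther from con in the summed counts of both lists. The male list summed to 560982 and 175660 in con/STZ, against at least 977281 in con. The female list summed to 5221 and 8574 in con/STZ, against 3594, 3496 and 3700 in con. In VHLΔPT/STZ, where Xist was not high, the male list summed to 644155 and 220884. In VHLΔPT, without STZ, it summed to 1031700 in replicate 1 and 671134 in replicate 2, and 0 of its 7 genes passed against con. Of 7 markers of S1 and S2 segments 5 rose and 1 fell, and of 5 markers of the S3 segment, 1 of them also in the male list, 1 rose and 3 fell. Of the distal markers, 2 of 3 of the distal convoluted tubule rose (median 1.03) and 1 of 3 of the thick ascending limb. The same held for 1 of 3 markers of collecting duct principal cells and 1 of 4 of intercalated cells. Of the markers of podocytes, which are glomerular cells, 1 of 4 rose. Of all these markers 0 fell. Over all genes tested 14.1% rose and 14.1% fell. Of 4 tested markers of macrophages and lymphocytes 0 rose and 3 fell, of 4 liver markers 0 rose and 1 fell, and of the endothelial, fibroblast and smooth muscle, urothelial, adrenal, fat and tubular injury markers 0 passed. In cortex RNA fewer cells of a type and less RNA per cell cannot be told apart, and the part of these differences in the members' changes was not tested.

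**Figure D4:**
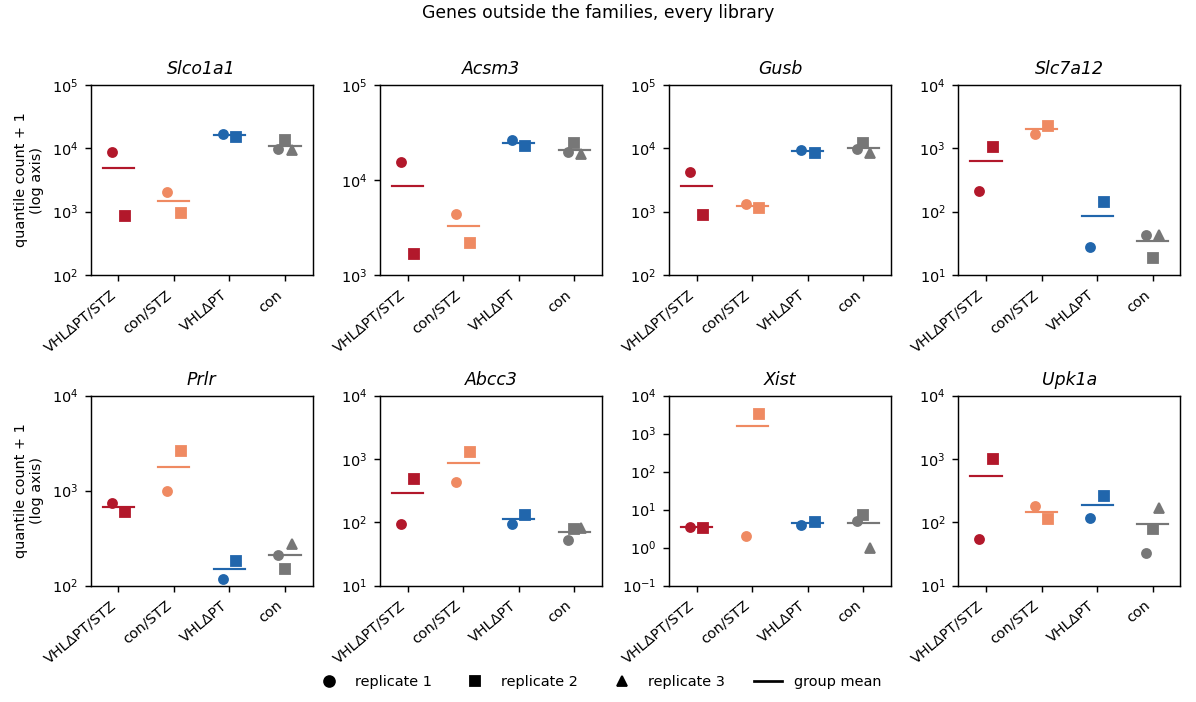
Quantile count + 1 (log axis) of 8 genes outside the families, one point for each library (shape gives the replicate number) and a line for the arithmetic group mean, with VHLΔPT/STZ, con/STZ, VHLΔPT and con side by side. Slco1a1, Acsm3 and Gusb are lower and Slc7a12, Prlr and Abcc3 higher in both con/STZ libraries than in all con libraries, Xist stands out in con/STZ replicate 2, and Upk1a, a urothelial gene, in VHLΔPT/STZ replicate 2.

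The second question is what loss of Vhl in the early proximal tubule did without diabetes. In VHLΔPT against con, 0 of 43 members rose and 1 fell (limma), where 2.43% of all genes rose and 0.658% fell. Sult1a1, a phenol sulfotransferase, had 353 and 397 counts in VHLΔPT, against 610, 545 and 611 in con, without overlap (log2 change -0.65, SE 0.14, adjusted p = 0.0476). Sult1a1 lies on chromosome 7 (126672865 to 126676432). Its change stayed between -0.73 and -0.38 under 21 alternatives, but its adjusted p lay between 0.0262 and 0.297 and was past the threshold in 6 of them. The call was lost on leaving out any 1 con, con/STZ or VHLΔPT library, with adjusted p values between 0.0505 and 0.278, while leaving out either VHLΔPT/STZ library gave 3 members that fell, Sult1a1, Gsta1 and Gstk1, where 1.35% of all genes (without replicate 1) and 1.34% (without replicate 2) fell. Gsta1 had 8.33 and 11.3 counts in VHLΔPT, below all of 62.6, 32.2 and 48.4 in con, and did not pass (-2.13, SE 0.51, adjusted p = 0.056).

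All 18 tested cytosolic Gst genes had a negative change in VHLΔPT, with a median of -0.24, against -0.02 over all genes, but 0 passed. By an unadjusted p under 0.05, 3 of the 18 were lower, against 13.2% of all genes. With the length trend removed, 11 of the 18 were below 0, the median was -0.09, and neither Sult1a1 nor any other gene passed (0.0% of all genes in each direction). Without con replicate 3, 14 of the 18 were below 0. Changes in VHLΔPT were above 0 for 7 of 8 Ugt1a genes (median 0.18), 5 of 5 Ugt2 genes (0.42) and 3 of 3 Ugt3 and Ugt8 genes (0.25). Of these 0 passed, and 1 was higher by an unadjusted p under 0.05 (Ugt8a, 0.65, limma), against 14.0% of all genes. Ugt1a2 had 7.00 and 81.3 counts in VHLΔPT and overlapped con. Among the surrounding genes, 1 of 12 conjugate transporters rose and 0 fell, the efflux pump Abcc2 (0.74, SE 0.15, adjusted p = 0.044), with 8027 and 7125 counts in VHLΔPT, against 5057, 4977 and 3674 in con. Of 18 tested regulators 1 rose and 0 fell, Hif1a (0.54, SE 0.12, adjusted p = 0.0488), and in the other lists around conjugation 0 passed. Of 3 markers of the thick ascending limb 1 rose, the salt transporter Slc12a1 (0.59). Over all genes tested 2.43% rose and 0.658% fell.

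**Figure D5:**
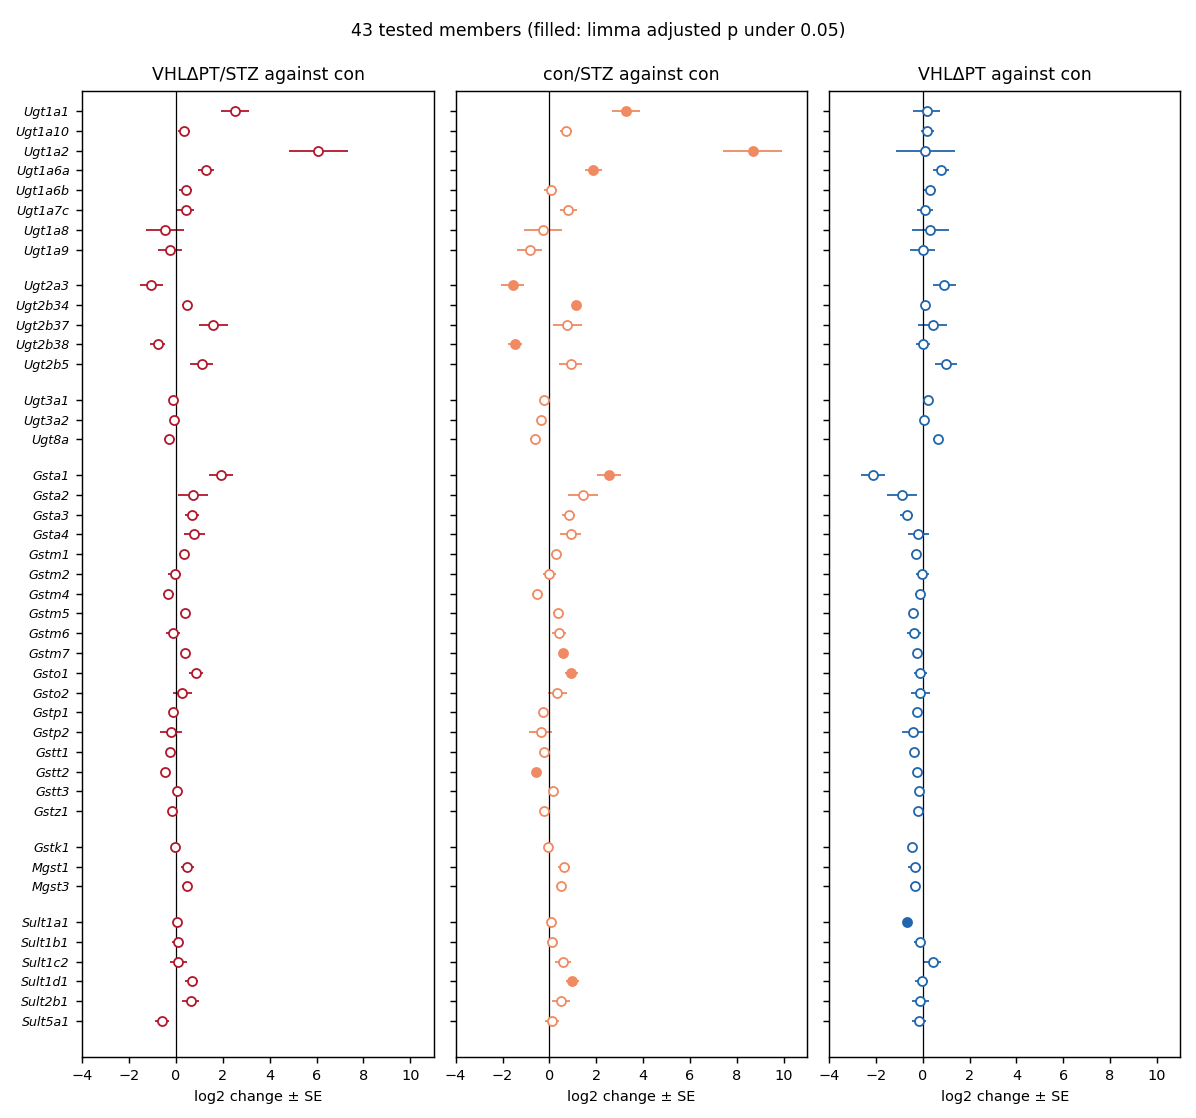
Log2 change ± SE (horizontal axis) of the 43 tested members, by family, in VHLΔPT/STZ, con/STZ and VHLΔPT, each against con. Filled points passed (8 higher and 3 lower in con/STZ, 1 lower in VHLΔPT, 0 in VHLΔPT/STZ), and Ugt1a2 lies farthest right in con/STZ (8.68) and VHLΔPT/STZ (6.08). The 3 comparisons share the con libraries.

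The third question is how mice with both the Vhl deletion and diabetes differed from con, a comparison in which genotype and STZ change together. In VHLΔPT/STZ against con, 0 of 43 members passed (limma; an unadjusted p under 0.05 was reached by 9 that were higher and 2 that were lower, against 12.6% and 12.2% of all genes). At the adjusted threshold, 0.935% of all genes rose and 0.464% fell. The largest changes were those of Ugt1a2 (log2 change 6.08, SE 1.25, adjusted p = 0.0518), Ugt1a1 (2.52, SE 0.58, adjusted p = 0.0592) and Gsta1 (1.92, SE 0.51, adjusted p = 0.079). Ugt1a2 had 437 and 5849 counts in VHLΔPT/STZ, both above the 10.7, 15.7 and 67.7 of con. Ugt1a1 had 36.7 and 78.7 counts in VHLΔPT/STZ, against 14.9, 3.11 and 12.4 in con. The median change of the members was 0.27, against -0.01 over all genes.

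The 2 VHLΔPT/STZ libraries were far apart for these genes. Among the 43 members, 13 differed over 2-fold between them, against 1 between the con/STZ libraries and 4 between the VHLΔPT libraries, with median absolute log2 gaps of 0.67, 0.28 and 0.25. Replicate 2 held more of Ugt1a2 (5849 against 437 in replicate 1), Gsta1 (337 against 92.2), Gsta2 (5264 against 1103) and Gsta4 (1740 against 492), and less of Ugt2b38 (10540 against 21487) and Ugt1a9 (186 against 678). For Ugt1a2, Gsta2 and Ugt2b38 the values of replicate 2 were nearer to those of con/STZ than the values of replicate 1 were. Other members went the other way. Ugt1a10 had 2972 counts in replicate 1 and 1406 in replicate 2, against 2918 and 2350 in con/STZ. Sult1c2 had 4568 and 2445, against 4217 and 5155 in con/STZ. How many members were nearer in each replicate was not counted. Outside the families, replicate 2 was nearer to con/STZ for Slco1a1 (854 counts in replicate 2 and 8906 in replicate 1), Gusb (898.5 and 4167) and Slc7a12 (1055 and 214). Replicate 1 was nearer for the summed markers of the thick ascending limb. These were 86903 in replicate 1 and 73783 in replicate 2, against 118364 and 105404 in con/STZ. Replicate 2 was also the library with the high urothelial counts. The correlation with exon length had opposite signs in these libraries, with r of 0.184 in replicate 1 and -0.057 in replicate 2. The part of these differences in the members' values was not tested. Leaving out replicate 1, 5 members rose and 1 fell against con (limma), where 1.37% of all genes rose and 1.66% fell, among them Ugt1a2 (7.95, adjusted p = 0.0214) and Ugt2b38 (-1.31, adjusted p = 0.0411), while leaving out replicate 2, 0 passed, where 0.0485% of all genes rose and 0.0% fell.

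Between the 2 diabetic groups, in VHLΔPT/STZ against con/STZ, 0 of 43 members passed (limma; an unadjusted p under 0.05 was reached by 0 that were higher and 1 that were lower, against 3.09% and 3.54% of all genes). At the adjusted threshold, 0.00693% of all genes, 1 gene, rose and 0.0% fell. Ugt1a2 had 437 and 5849 counts in VHLΔPT/STZ, below 10202 and 9274 in con/STZ, but the change of -2.60 had an SE of 1.37 (adjusted p = 0.763). The member with the unadjusted p under 0.05 was Ugt2b34, with 583 and 702 counts in VHLΔPT/STZ and 795 and 1332 in con/STZ (-0.68, SE 0.22, adjusted p = 0.744). Ugt2b37 had 2491 and 2680 counts in VHLΔPT/STZ, above 1511 and 1387 in con/STZ, without overlap and without passing (0.84, SE 0.68, adjusted p = 0.816). In VHLΔPT it had 765 and 1724 counts, and in con its 3 libraries ran from 441 to 2351.

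The effect of STZ within the Vhl-deleted mice was compared next. In VHLΔPT/STZ against VHLΔPT, 0 of 43 members passed (limma; an unadjusted p under 0.05 was reached by 14 that were higher and 3 that were lower, against 5.15% and 5.88% of all genes). At the adjusted threshold, 0.00693% of all genes rose and 0.0% fell. Gsta1 had 92.2 and 337 counts in VHLΔPT/STZ, above 8.33 and 11.3 in VHLΔPT (log2 change 4.05, SE 0.56, adjusted p = 0.207), and Ugt1a2 had 437 and 5849 counts, above 7.00 and 81.3 (5.96, SE 1.37, adjusted p = 0.374). Without VHLΔPT/STZ replicate 1, 8 members rose and 1 fell, where 0.464% of all genes rose and 0.997% fell, among them Gsta1 (4.98, adjusted p = 0.00777), Ugt1a2 (7.83, adjusted p = 0.0341) and Ugt8a, which makes galactosylceramide (-1.30, adjusted p = 0.0375).

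Whether STZ changed the members differently in the 2 genotypes was tested as the interaction, the STZ change in Vhl-deleted mice minus that in mice without Cre. Of 43 members 0 passed (limma; an unadjusted p under 0.05 was reached by 3 that were higher and 2 that were lower, against 12.8% and 13.2% of all genes). At the adjusted threshold, 0.305% of all genes were higher and 1.41% lower. The interaction of Ugt1a2 was -2.72 (SE 1.85, adjusted p = 0.381) and that of Gsta1 1.52 (SE 0.76, adjusted p = 0.240). Without VHLΔPT/STZ replicate 1, 3 members passed: Gstk1, an enzyme of mitochondria and peroxisomes (0.73), Gsta1 (2.45) and Ugt1a10 (-1.09), where 1.3% of all genes were higher and 3.6% lower.

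The 10 members below a mean count of 10 were Gstm3, Gstt4, Mgst2, Sult1e1, Sult2a3, Sult4a1, Sult6b1, Sult6b2, Ugt1a5 and Ugt2b35. None exceeded a count of 17.8 in any library, that of Sult2a3 in con replicate 1. Sult1e1, the estrogen sulfotransferase, stayed at 0 to 4.67. Of the members tested, Gstz1, a step of tyrosine breakdown, was among the most even, with 8435 and 7940 counts in VHLΔPT/STZ, 7750 and 7797 in con/STZ, 8302 and 7866 in VHLΔPT, and 8435, 9432 and 9758 in con.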

How the data were processed

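RNA of mouse kidney cortex was measured as poly(A) libraries, 9 in all, grouped by the sample labels. Reads of 50 bases were mapped by the authors to GRCm38 (STAR 2.5.2b), and gene counts came from featureCounts 1.5.2. The submitters' processing notes also list FastQC 0.11, Trim Galore 0.4, StringTie 1.3.3b and MultiQC 1.4. The deposited signal values used were gene counts after quantile normalization by the authors. Neither the tool behind that step nor the treatment of reads shared by genes is given in the sources used here. Only 14.9% of the values are whole numbers and all totals are nearly equal, so the depth of each library is unknown and no count model was fitted. The deposited table also holds 18 columns of the authors' comparisons (signed folds, false discovery rates and adjusted p values), which were not used, and 0 columns of individual samples were left out. For 24 genes listed under a date, the name was looked up by identifier.

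Values were tested as log2(value + 1) for genes with a mean of at least 10 with limma 3.58.1 in R 4.3.3. The fit had 4 group means and a mean-variance trend, was two-sided and was adjusted by Benjamini-Hochberg over all 14437 genes. The pseudocount understates changes of low genes. With 5 residual degrees of freedom the spread is shared by all groups. The steps were tested on simulated data. Exon lengths, transcripts and shared 50-base windows are from GENCODE M21, and promoters are from RefSeq. Alternatives comprised a pseudocount of 10, a filter at a mean of 50 or none, rescaling by median ratios, no trend, library weights, the compared groups alone, a replicate block, removal of a loess length trend (span 0.5), a fold over 1.5 as well, and leaving out each library.

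The members and lists were chosen with earlier results of these data known. Values per library are given for members that passed, for the 8 most abundant per kb and for Ugt2b37. Values of Gsta2, Gsta4, Gstz1 and Ugt1a9 were added after they were seen, as were the changes of Ugt1a7c, Ugt1a10, Ugt8a and Gstk1. At most 3 genes of a surrounding list are named, those that passed with the largest changes, with markers that bear on a library. Figures and tables were made with Python 3.11.15, numpy 2.4.6, pandas 2.3.3 and matplotlib 3.10.9.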

Additional observations from a re-analysis of the deposited data

How the results depend on the processing

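In VHLΔPT against con, the count of 1 member that passed was 0 with no filter, without the trend, with only the groups compared, with the replicate block, with each of the 3 length corrections and with 3 libraries left out together (con 3, con/STZ 2 and VHLΔPT/STZ 2, an alternative chosen after seeing the data). It was 3 with library weights, and 0 to 3 on leaving out each library. In con/STZ against con, the count of 11 was 6 without the trend, 6 with those 3 libraries left out (3 of them among the 11), 2 with the length correction that also left out con/STZ 2, and 4 to 19 on leaving out each library. In VHLΔPT/STZ against con, the count of 0 was 1 with a pseudocount of 10, with a filter at 50 and with rescaling, and 0 to 6 on leaving out each library. The range was 0 to 9 for VHLΔPT/STZ against VHLΔPT and 0 to 3 for the interaction, and VHLΔPT/STZ against con/STZ stayed at 0 in all 22 alternatives. The cause of these differences was not tested, beyond the fewer libraries or genes that some alternatives hold. The share of all genes that passed moved as well. In con/STZ against con, 14.1% rose and 14.1% fell in the main fit, against 8.5% and 10.8% with the length correction. That share is not given for every alternative, so the counts are not read as results about the members.

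The change of Ugt2b37 in VHLΔPT (0.42) was -0.17 without VHLΔPT replicate 2, -0.06 without con replicate 1 and 1.15 without con replicate 3, the range on leaving out each library. Over 333 alternatives of 16 named genes and comparisons, 245 kept direction and side of the threshold, 83 no longer passed, 3 newly passed and 2 reversed direction. The 245 include Ugt2b37 results that had not passed and stayed so. All 83 losses were of results that had passed. They ranged from 0 of 21 alternatives for Ugt1a2 in con/STZ to 15 of 21 for Gstt2 in con/STZ and Sult1a1 in VHLΔPT. Whether the replicate numbers pair the libraries could not be decided. Of 12 correlations between same-numbered libraries 4 were above 0.1 (range -0.109 to 0.273). Where both groups held 2 libraries, replicate 1 and replicate 2 gave the same r, as with 0.273 for VHLΔPT/STZ and VHLΔPT. The 12 values are therefore not separate checks. With the replicate block 8 members rose and 1 fell in con/STZ, 9 in all, and the share of all genes under that setting is not given. With the length correction as well 13 rose and 0 fell, where 6.0% of all genes rose and 6.93% fell. Groups of 2 pools and unknown depth limit what could be detected.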
